A study of Mus musculus with 24 samples.

Results

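The genes described here encode the contractile and cytoskeletal proteins that mark smooth muscle cells and myofibroblasts, and they were chosen by symbol: Acta2, Actg2, Tagln, Cnn1, Tpm1, Tpm2, Lmod1, Myh11, Myl9 and Des. They are 10 of the 37310 genes in each deposited table, and all 10 reached the expression level needed for testing, an FPKM of 1 in at least 2 libraries. FPKM, the unit of every level below, is the number of reads on a gene per kilobase of its length and scaled to the reads on genes in the library. The choice also rested on a measured value, the opposite response of Actg2 to EGCG in the 2 fat depots on day 4. For that reason the day 4 responses to EGCG, and any comparison of Actg2 that holds a day 4 group, are described without a test.

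The cells were cultured stromal vascular fraction, a mixture that includes adipocyte precursors beside other stromal cell types, taken from the inguinal white (WAT) and interscapular brown (BAT) fat of C57BL/6 mice aged 6 weeks. All of them were cultured and given an adipogenic induction mix, which held a glucocorticoid, insulin and a phosphodiesterase inhibitor until day 4, and then insulin with thyroid hormone until day 8. The medium held epigallocatechin gallate (EGCG), a green tea catechin whose dose the labels do not give, or DMSO, here called control. WAT and BAT, day 4 and day 8, and control and EGCG made 8 groups of 3 libraries, and nothing in the labels says that the replicates came from separate isolations, so p-values measure the spread between these libraries, which may be technical.

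Smooth muscle contracts when myosin, built from the heavy chain Myh11 and regulatory light chains such as Myl9, pulls on thin filaments of alpha and gamma smooth muscle actin (Acta2, Actg2). Tropomyosins (Tpm1, Tpm2), calponin 1 (Cnn1) and transgelin (Tagln) lie along these filaments, leiomodin 1 (Lmod1) nucleates them, and desmin (Des) forms the intermediate filaments that tie the apparatus together. Many of these genes are driven by serum response factor and its cofactors through the DNA element called the CArG box. Fibroblasts and fat stromal cells switch on part of the set, Acta2 and Tagln above all, when they become myofibroblasts, while Myh11, Lmod1 and Cnn1 are more restricted to mature smooth muscle.

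The sequences around the gene starts are shown because most members moved together and the CArG box is a known element of genes of the set. Of the 10 members, 7 had an entry in the RefSeq promoter table (GRCm38.p6, 250 bases before to 50 bases after the start of the gene, printed on the strand of the gene). Capitals mark CArG boxes and 10-letter matches with at most 1 position off. Actg2, Tagln and Myh11 had no entry. The promoters of Acta2 (chr19:34255324-34255623, minus strand), Myl9 (chr2:156775214-156775513, plus strand), Tpm1 (chr9:67049164-67049463, minus strand) and Lmod1 (chr1:135324563-135324862, plus strand) held such matches, and that of Des (chr1:75360042-75360341, plus strand), the member whose levels differed most from the others, is shown beside them.
Acta2: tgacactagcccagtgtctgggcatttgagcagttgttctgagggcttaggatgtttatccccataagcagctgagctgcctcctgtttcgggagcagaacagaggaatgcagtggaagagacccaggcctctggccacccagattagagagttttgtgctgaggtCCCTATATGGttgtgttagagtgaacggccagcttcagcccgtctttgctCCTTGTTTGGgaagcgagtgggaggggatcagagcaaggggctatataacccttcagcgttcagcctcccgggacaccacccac
Myl9: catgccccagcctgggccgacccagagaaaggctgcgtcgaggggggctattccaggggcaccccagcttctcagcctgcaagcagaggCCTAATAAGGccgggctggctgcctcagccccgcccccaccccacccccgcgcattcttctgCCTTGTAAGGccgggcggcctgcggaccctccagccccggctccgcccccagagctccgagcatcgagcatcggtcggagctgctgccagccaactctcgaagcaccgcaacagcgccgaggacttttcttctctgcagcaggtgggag
Tpm1: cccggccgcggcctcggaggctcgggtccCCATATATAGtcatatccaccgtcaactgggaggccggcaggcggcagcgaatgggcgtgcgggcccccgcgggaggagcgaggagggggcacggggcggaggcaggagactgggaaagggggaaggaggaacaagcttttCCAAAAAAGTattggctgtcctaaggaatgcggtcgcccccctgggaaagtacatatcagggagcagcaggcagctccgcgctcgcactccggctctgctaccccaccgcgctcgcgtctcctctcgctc
Lmod1: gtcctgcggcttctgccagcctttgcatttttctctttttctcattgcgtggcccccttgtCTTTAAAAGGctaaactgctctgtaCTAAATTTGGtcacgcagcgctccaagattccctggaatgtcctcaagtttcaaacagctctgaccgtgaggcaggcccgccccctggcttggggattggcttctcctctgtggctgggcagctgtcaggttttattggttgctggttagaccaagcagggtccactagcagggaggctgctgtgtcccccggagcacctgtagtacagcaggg
Des: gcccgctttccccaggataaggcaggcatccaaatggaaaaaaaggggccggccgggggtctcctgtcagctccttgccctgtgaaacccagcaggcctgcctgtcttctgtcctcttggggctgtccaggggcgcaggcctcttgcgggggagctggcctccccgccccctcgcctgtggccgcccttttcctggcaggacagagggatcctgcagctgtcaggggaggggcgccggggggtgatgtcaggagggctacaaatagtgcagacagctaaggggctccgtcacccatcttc

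A full CArG box was found in 1 of the 7 promoters, that of Myl9, where it began 161 bases before the start, against 1.63% of 32851 promoters of the same length. With at most 1 position off, 4 of 7 had a match (Acta2 from 84 and 34 bases before the start, Myl9 also from 99, Tpm1 from 221 and 80, Lmod1 from 189 and 164), against 21.1% of all promoters. The letters CATTCC, the core bound by TEAD factors, were searched on both strands and were present in 3 of 7 (Acta2, Tpm1 and Lmod1), against 14.7% of all promoters. None of these matches overlapped a CArG match. TATAAA was in none of the 7, against 8.32% of all promoters. The windows of Des, Tpm2 and Cnn1 held none of these matches. A match of letters is a description and not a site shown to be used.

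In the mm9 build (NCBIM37, GENCODE vM1 annotation), the members lie on 7 chromosomes and are protein-coding. Acta2 is at chr19:34315580-34329826, Actg2 at chr6:83462899-83486259 and Tagln at chr9:45737711-45744141, all on the minus strand. Myh11 is at chr16:14194620-14291501 on the minus strand, Cnn1 at chr9:21903725-21914074 and Des at chr1:75356904-75365154 on the plus strand. Tagln overlaps Pcsk7 on the other strand, Lmod1 overlaps a U6 gene and Des overlaps Gm15179. Whether counting used the strand is not given in the sources used here, so reads of such overlapping pairs cannot be told apart. Stretches of 50 bases were compared with the protein-coding transcripts of other genes. Those shared made up 0.404% of the Acta2 transcript (shared with Actg1) and 0.395% of the Myh11 transcript (shared with Myh9 and Myh10). No other member shared any with these transcripts, and noncoding genes and pseudogenes were not searched.

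Depth on genes was 39452696 to 52893848 reads a library for replicates 1 and 2, and 16392420 to 41675643 for replicate 3, which was deposited as a table with its own scaling. Tests used replicates 1 and 2, and replicate 3 gave values and directions. In the replicate 3 library of EGCG-treated WAT on day 8, 61.0% of the reads fell on 5 genes, against 3.64% to 10.5% in the other 23 libraries. Its median-ratio factor, the level of its median gene against the 8 replicate 3 libraries, was 0.457, and that of the other 7 was 1.01 to 1.23. Zic1, a marker of brown fat precursors, was at 3.57 to 11.1 FPKM in the BAT libraries and at most 0.163 in the WAT libraries. Zic1 summed with Ucp1 and Lhx8 parted the depots less. In controls of day 4 these genes summed to 40.1 to 41.2 FPKM in BAT and 17.7 to 19.4 FPKM in WAT (replicates 1 and 2). In controls of day 8 they summed to 20.0 to 21.2 and 7.79 to 8.32 FPKM. The adipocyte marker list (Adipoq, Fabp4, Plin1, Cfd, Pparg, Cidec and Lep) summed to 9706 to 9812 FPKM in BAT and 4786 to 5577 FPKM in WAT control libraries of day 8. With EGCG the same sum was 294 to 299 FPKM in BAT and 130.2 to 145.8 FPKM in WAT on day 8. These are bulk cultures, in which fewer cells of a type and less RNA per cell cannot be told apart.

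On day 4 the members stood apart between the depots in their response to EGCG. In BAT, 8 of 10 were at least 2-fold higher with EGCG on the log2(FPKM + 1) scale and none was 2-fold lower, against 3.4% and 2.77% of the 14095 genes tested. In WAT none was 2-fold higher and 4 of 10 (Acta2, Actg2, Tagln and Myl9) were at least 2-fold lower, against 3.82% and 3.08% of all genes. The median log2 change of the members was 2.32 in BAT and -0.77 in WAT, beside 0.03 and 0.09 for all genes tested. Cnn1, 3.18-fold lower in WAT by the ratio of mean FPKM, had a log2 change of -0.95 on the log2(FPKM + 1) scale, which understates changes of low genes. Likewise Myh11, 2.30-fold higher in BAT by the ratio of mean FPKM, had a log2 change of 0.82. These day 4 counts are a description, since the choice of the members used this contrast.

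On day 8, a time that the choice of the members did not name, EGCG was followed by higher levels of most members in BAT and by a split in WAT. In BAT 8 of 10 rose and 2 (Myh11 and Des) fell (limma on log2(FPKM + 1), Benjamini-Hochberg adjusted p under 0.05), while 46.5% of all genes tested rose and 26.1% fell. In WAT 4 rose (Acta2, Tagln, Tpm1 and Tpm2), 3 fell (Actg2, Cnn1 and Myh11) and 3 did not pass the test, while 44.7% of all genes rose and 18.9% fell. The median log2 change of the members was 0.84 in BAT and 0.08 in WAT, beside 0.17 for all genes in each depot. The share of members that rose in WAT was close to that of all genes, and the share in BAT was above it. In replicate 3 the WAT direction was the same for 5 of 10 members as deposited and for 9 after median-ratio scaling. The BAT direction was the same for 10 of 10 both ways. When any of the 4 day 8 WAT libraries was left out, 2 members fell in WAT (Cnn1 and Myh11). In BAT, between 6 and 8 rose when a library was left out, the lowest count without the second EGCG library, where Lmod1 and Myl9 were not called. Scaling by median ratios moved the median of all genes to 0.01 in WAT and 0.02 in BAT, and the share of calls that were higher from 70.3% to 51.3% in WAT and from 64.0% to 51.8% in BAT. With that scaling Lmod1 and Myl9 were not called higher in BAT.

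The response itself differed between the depots on day 8. The test of the difference, the EGCG effect in BAT minus that in WAT, passed for 8 of 10 members: it was above 0 for 6 (Acta2, Actg2, Tagln, Cnn1, Tpm1 and Tpm2) and below 0 for 2 (Myh11 and Des), against 19.4% and 19.7% of all genes. The median difference was 0.81 for the members and 0.01 for all genes on the log2 scale. The test did not pass for Myl9 (0.50 ± 0.20, 95% interval 0.05 to 0.95, adjusted p = 0.0740, limma) or Lmod1 (0.12 ± 0.15, 95% interval -0.21 to 0.46, adjusted p = 0.565, limma). The Myl9 difference passed when the second WAT control library of day 8 was left out (0.76, adjusted p = 0.00318 by limma). All 10 of these differences had the same sign in replicate 3 once libraries were scaled by median ratios. As deposited 8 of 10 did, and every difference was above 0, also those of Myh11 and Des. The low values of the EGCG-treated WAT library (median-ratio factor 0.457) raise each difference as deposited, so that count cannot tell whether replicate 3 repeated them.

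**Figure D1:**
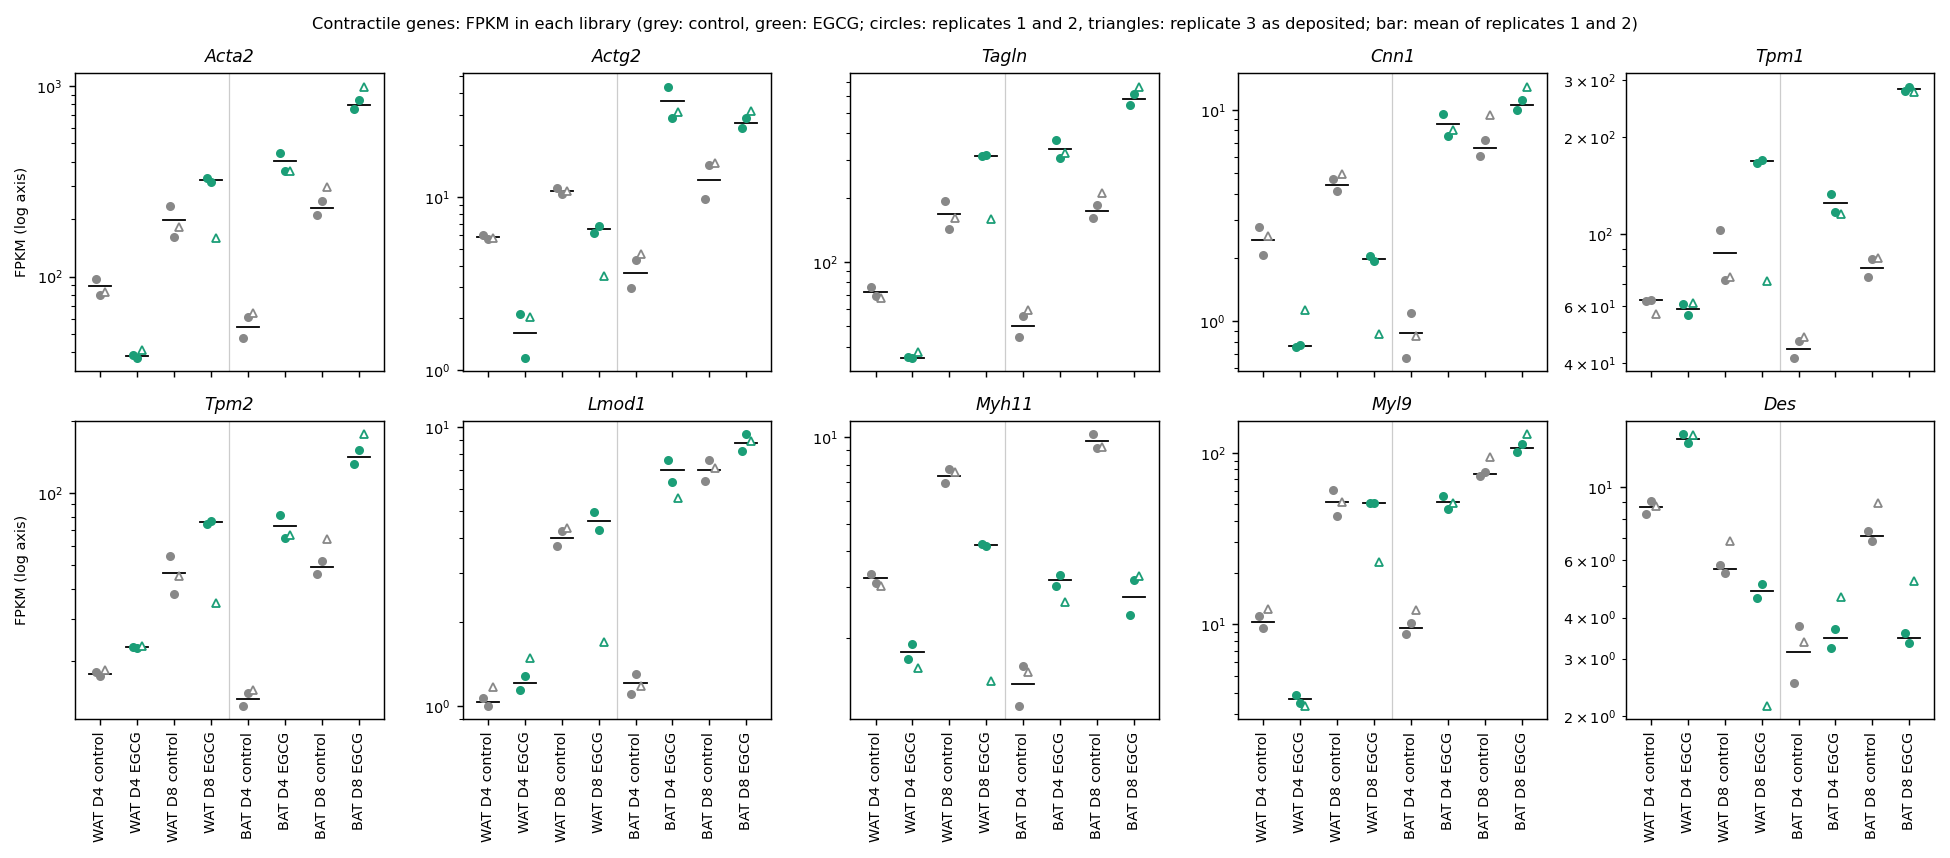
FPKM of each member (log axis, 1 panel a gene) in the 24 libraries, with WAT groups on the left and BAT groups on the right. Circles are replicates 1 and 2, triangles replicate 3 as deposited, and bars the mean of replicates 1 and 2. Most members are highest in EGCG-treated BAT of day 8, whereas Myh11 peaks in the day 8 controls and Des in EGCG-treated WAT of day 4.

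The actins moved in opposite directions with EGCG in the 2 depots on day 4. Values are given in the order of replicates 1, 2 and 3. On day 4 in WAT, Acta2 was at 97.5, 80.4 and 83.0 FPKM in control and 39.0, 37.5 and 41.4 FPKM in EGCG libraries, and on day 4 in BAT at 47.5, 61.2 and 64.2 FPKM in control and 447, 357 and 357 FPKM in EGCG libraries. The groups did not overlap in either depot, with EGCG the lower group in WAT and the higher in BAT. The ratio of means of replicates 1 and 2 was 2.33-fold lower in WAT and 7.39-fold higher in BAT. By day 8 the WAT control libraries had 233, 162 and 182 FPKM and the EGCG libraries 329.6, 314 and 159 FPKM, the last of these from the library with 61.0% of reads on 5 genes. In BAT the day 8 values were 209, 249.8 and 294 FPKM in control and 755, 841 and 989 FPKM with EGCG.

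In BAT all 3 EGCG libraries of day 8 were above all 3 controls for Acta2, and in WAT replicates 1 and 2 were, with replicate 3 below its table's control as deposited and above it (391 against 201 FPKM) after median-ratio scaling. Acta2 rose with EGCG in both depots on day 8, by 0.72 ± 0.18 in WAT (log2, SE, adjusted p = 0.00335, limma) and by 1.80 ± 0.18 in BAT (adjusted p = 1.79e-06, limma). The rise in BAT was larger by 1.07 ± 0.25 (adjusted p = 0.00518, limma). In the order of group means Acta2 ran from EGCG-treated BAT of day 8 (798 ± 61.1 FPKM, SD, n = 2) to EGCG-treated WAT of day 4 (38.2 ± 1.07), a 20.9-fold range. Neighbours in that order did not overlap in replicates 1 and 2, except the BAT and WAT controls of day 8. By rank within a library, Acta2 was the 28th to 36th highest gene in EGCG-treated BAT of day 8 and the 1500th to 1623rd in EGCG-treated WAT of day 4.

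Actg2, the gamma actin of visceral smooth muscle, was lower than Acta2 in every library but had the widest swing on day 4. It was at 6.02, 5.72 and 5.81 FPKM in WAT control and 2.11, 1.17 and 2.02 FPKM in WAT EGCG libraries of day 4, and at 2.98, 4.30 and 4.69 FPKM and 43.4, 28.8 and 31.0 FPKM in the matching BAT libraries. EGCG libraries were the lower group in WAT, 3.58-fold by the means, and the higher group in BAT, 9.91-fold, with no overlap in either. These are the values that chose the gene. They rest on 63 to 124 reads in the WAT EGCG libraries and 750 to 2542 reads in the BAT EGCG libraries.

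On day 8 Actg2 was at 11.3, 10.4 and 10.8 FPKM in WAT control and 6.22, 6.83 and 3.47 FPKM in WAT EGCG libraries. BAT libraries of that day had 9.69, 15.2 and 15.7 FPKM in control and 25.0, 28.8 and 31.4 FPKM with EGCG. All 3 EGCG libraries were below the controls in WAT and above them in BAT. Actg2 rose by 1.08 ± 0.23 in BAT (adjusted p = 0.00126, limma), and in WAT it fell, with a log2 change of -0.65 ± 0.23 (adjusted p = 0.0278, limma). The WAT call did not hold when any of the 4 day 8 WAT libraries was left out (log2 change -0.71 to -0.60, adjusted p = 0.0593 to 0.114, limma). The depot difference of 1.73 ± 0.33 (adjusted p = 0.00160, limma) was the largest among the members. The opposite direction of Acta2 and Actg2 in WAT was seen in replicate 3 after scaling, with Actg2 at 8.51 against 11.9 FPKM. Over the 8 groups Actg2 ran from EGCG-treated BAT of day 4 (36.1 ± 10.4 FPKM, SD, n = 2), which overlapped EGCG-treated BAT of day 8, to EGCG-treated WAT of day 4 (1.64 ± 0.661 FPKM), a 22.0-fold range, and the BAT and WAT controls of day 8 overlapped as for Acta2.

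**Figure D2:**
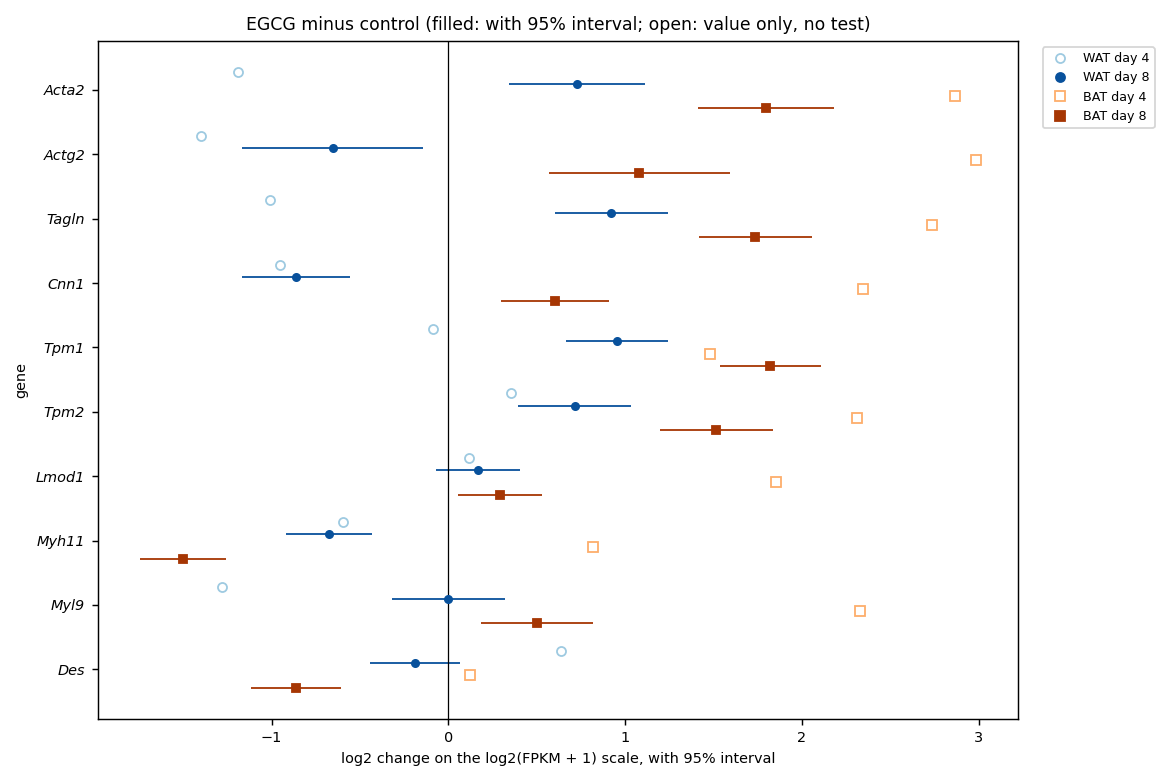
Log2 change with EGCG (x axis, log2(FPKM + 1) scale) for the 10 members in WAT (circles) and BAT (squares). Filled symbols are day 8 changes with 95% intervals from limma, and open symbols are day 4 changes, shown without a test because the choice of members used them. On day 4 the BAT symbols lie right of the WAT symbols for 9 of 10 members, and on day 8 Myh11 and Des are the members left of 0 in BAT.

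The thin filament proteins followed the actins in different degrees. Tagln, an actin-binding protein of smooth muscle and myofibroblasts, was at 76.1, 68.8 and 67.8 FPKM in WAT control and 35.6, 35.4 and 37.6 FPKM in WAT EGCG libraries of day 4, and at 44.5, 55.5 and 59.5 FPKM and 371, 306 and 322 FPKM in the BAT control and EGCG libraries. In the same order, on day 8 it was at 193, 142 and 160.1 FPKM and 312, 317 and 158 FPKM in WAT, and at 161, 185 and 211 FPKM and 543, 615 and 662 FPKM in BAT. The EGCG libraries were apart from the controls in every case but WAT on day 8, where replicate 3 lay among the controls as deposited. The order of its group means was that of Acta2. Tagln rose with EGCG on day 8 by 0.92 ± 0.15 in WAT (adjusted p = 1.61e-04, limma) and by 1.74 ± 0.15 in BAT (adjusted p = 4.74e-07, limma), and the depot difference was 0.81 ± 0.21 (adjusted p = 0.00862, limma).

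Cnn1, a calponin that binds actin and slows myosin, split by depot as Actg2 did. Day 4 values in WAT were 2.80, 2.06 and 2.52 FPKM in control and 0.756, 0.770 and 1.13 FPKM with EGCG, and in BAT 0.672, 1.09 and 0.854 FPKM in control and 9.53, 7.54 and 8.01 FPKM with EGCG. Day 8 values in WAT were 4.71, 4.14 and 4.97 FPKM in control and 2.03, 1.93 and 0.871 FPKM with EGCG, and in BAT 6.05, 7.19 and 9.46 FPKM in control and 9.98, 11.1 and 12.8 FPKM with EGCG. On both days every EGCG library lay below the controls in WAT and above them in BAT. The replicate 3 value of WAT on day 8 comes from the library with 61.0% of reads on 5 genes, which lowers it. After median-ratio scaling Cnn1 was at 2.13 FPKM with EGCG and 5.50 FPKM in control there. With EGCG on day 8 Cnn1 fell in WAT (log2 change -0.86 ± 0.14, adjusted p = 1.99e-04, limma) and rose in BAT by 0.60 ± 0.14 (adjusted p = 0.00203, limma). The depot difference was 1.47 ± 0.20 (adjusted p = 1.57e-04, limma), and its adjusted p was the smallest among the members.

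The tropomyosins, which also serve nonmuscle stress fibres, were less moved in WAT on day 4. Tpm1 was at 62.2, 62.8 and 56.8 FPKM in WAT control and 61.0, 56.4 and 61.3 FPKM in WAT EGCG libraries of day 4, while BAT control libraries had 41.5, 46.9 and 48.3 FPKM and BAT EGCG libraries 133, 117 and 116 FPKM. On day 8 WAT values were 103, 72.1 and 73.5 FPKM in control and 166, 169.9 and 71.6 FPKM with EGCG, and BAT values 74.0, 83.8 and 84.4 FPKM and 276, 285 and 276 FPKM. WAT groups of day 4 overlapped once replicate 3 was counted, whereas BAT groups were apart on both days. In WAT on day 8 replicate 3 of Tpm1 was at 175 FPKM with EGCG against 81.4 FPKM in control after median-ratio scaling. Tpm1 had the largest called rise of all members with EGCG on day 8, by 1.82 ± 0.13 in BAT (adjusted p = 1.22e-07, limma) and 0.95 ± 0.13 in WAT (adjusted p = 5.26e-05, limma).

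Tpm2 and Lmod1 were the members whose mean was higher with EGCG in both depots on both days. The WAT means of Tpm2 over replicates 1 and 2 on day 4 were 17.6 ± 0.571 FPKM in control and 22.8 ± 0.0908 FPKM with EGCG, and its BAT means 13.9 ± 1.21 and 73.1 ± 11.0 FPKM (SD, n = 2). On day 8 Tpm2 rose from 46.5 ± 12.1 to 75.6 ± 1.31 FPKM in WAT (log2 change 0.71 ± 0.15, adjusted p = 0.00112, limma) and from 49.1 ± 4.34 to 142 ± 13.5 FPKM in BAT (log2 change 1.52 ± 0.15, adjusted p = 1.65e-06, limma). In replicate 3 of WAT Tpm2 was lower with EGCG as deposited, at 34.9 against 45.0 FPKM in control. After median-ratio scaling it was higher, at 85.5 against 49.8 FPKM. The depot differences on day 8 were 0.87 ± 0.19 for Tpm1 (adjusted p = 0.00326, limma) and 0.80 ± 0.21 for Tpm2 (adjusted p = 0.00961, limma).

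Lmod1, at 1.11, 1.31 and 1.18 FPKM in BAT control libraries of day 4, was at 7.62, 6.38 and 5.58 FPKM with EGCG, 5.80-fold higher by the means. In WAT on that day it stood at 1.07, 1.004 and 1.17 FPKM in control and 1.14, 1.28 and 1.49 FPKM in EGCG libraries, which overlapped. On day 8 it was at 6.40, 7.65 and 7.17 FPKM in BAT control and 8.20, 9.41 and 8.89 FPKM in BAT EGCG libraries, a log2 change of 0.29 ± 0.11 (adjusted p = 0.0302, limma). That call was the weakest of the BAT calls. Scaling by median ratios removed it (log2 change 0.12, adjusted p = 0.352, limma), and so did leaving out the second EGCG or the first control library (0.20 and 0.18, adjusted p = 0.203 and 0.234, limma). In WAT its day 8 change did not pass the test (0.17 ± 0.11, 95% interval -0.07 to 0.41, adjusted p = 0.197, limma).

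In BAT on day 8 Myh11 fell with EGCG, whereas the actins and the thin filament genes rose. In WAT on that day it fell together with Actg2 and Cnn1. Myh11, the heavy chain of smooth muscle myosin, was at 3.34, 3.10 and 3.04 FPKM in WAT control and 1.69, 1.90 and 1.57 FPKM in WAT EGCG libraries of day 4, and at 1.16, 1.59 and 1.53 FPKM and 3.04, 3.30 and 2.68 FPKM in the BAT control and EGCG libraries. By day 8 its WAT values were 6.94, 7.75 and 7.59 FPKM in control and 4.25, 4.18 and 1.42 FPKM with EGCG, and its BAT values 10.2, 9.13 and 9.25 FPKM in control and 2.40, 3.17 and 3.29 FPKM with EGCG. EGCG libraries were thus higher than controls in BAT on day 4, and lower in WAT on day 4 and in both depots on day 8, with no overlap. In replicate 3 of WAT on day 8, where the EGCG library is low as deposited, Myh11 was at 3.47 FPKM with EGCG against 8.40 FPKM in control after median-ratio scaling. Myh11 fell in WAT (log2 change -0.68 ± 0.11, adjusted p = 2.21e-04, limma) and more in BAT (-1.50 ± 0.11, adjusted p = 1.60e-07, limma), a depot difference of -0.83 ± 0.16 (adjusted p = 0.00162, limma).

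Its ratio of means in BAT on day 8 was 3.47-fold lower with EGCG, in the same libraries in which Acta2 was 3.48-fold higher. The Myh11 counts behind these values were 745 to 1112 reads in EGCG and 2390 to 3150 reads in control libraries of replicates 1 and 2.

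Myl9, the regulatory light chain shared by smooth muscle and contractile nonmuscle cells, moved over the widest range of all members, 29.2-fold between the highest and lowest group mean. It was at 11.2, 9.47 and 12.3 FPKM in WAT control and 3.86, 3.46 and 3.36 FPKM in WAT EGCG libraries of day 4, and at 8.75, 10.2 and 12.1 FPKM and 56.2, 47.3 and 50.7 FPKM in the BAT control and EGCG libraries. In the same order, on day 8 it was at 61.0, 42.5 and 51.5 FPKM and 50.7, 51.2 and 23.0 FPKM in WAT, and at 73.3, 77.3 and 94.7 FPKM and 102, 113 and 128 FPKM in BAT. The gap between WAT groups of day 4 had closed by day 8, when the groups overlapped, while the BAT groups were apart on both days. In WAT its day 8 change was -0.00046 (SE 0.14, 95% interval -0.32 to 0.32, adjusted p = 0.999, limma), and in BAT it rose by 0.50 ± 0.14 (adjusted p = 0.00821, limma). The BAT call of Myl9 did not hold with median-ratio scaling (0.31, adjusted p = 0.0719, limma) or without the second EGCG library (0.43, adjusted p = 0.0596, limma).

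Des behaved unlike the other members. It was at 8.31, 9.09 and 8.78 FPKM in WAT control and 14.5, 13.6 and 14.4 FPKM in WAT EGCG libraries of day 4, its highest group, and at 2.53, 3.77 and 3.36 FPKM and 3.23, 3.70 and 4.62 FPKM in the BAT control and EGCG libraries. In the same order, its day 8 values were 5.80, 5.50 and 6.85 FPKM and 4.60, 5.08 and 2.16 FPKM in WAT, and 7.35, 6.88 and 8.93 FPKM and 3.60, 3.34 and 5.17 FPKM in BAT. The day 4 groups overlapped in BAT and were apart in WAT, with EGCG higher. On day 8 Des fell with EGCG in BAT (log2 change -0.86 ± 0.12, adjusted p = 3.11e-05, limma), and in WAT its change did not pass the test (-0.19 ± 0.12, 95% interval -0.44 to 0.07, adjusted p = 0.178, limma), although with median-ratio scaling it did (-0.36, adjusted p = 0.0182, limma). The depot difference was -0.67 ± 0.16 (adjusted p = 0.00723, limma).

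Desmin is also a protein of skeletal muscle, and a list of 9 striated muscle genes (Acta1, Actc1, Tnnt2, Myl1, Mylpf, Myh3, Ckm, Myog and Myod1) was also higher with EGCG in WAT on day 4. Their summed level in replicates 1 and 2 was 84.5 to 86.3 FPKM in WAT control and 154 to 155 FPKM in WAT EGCG libraries, with 7 of 9 genes at 1 FPKM or more in both groups. In WAT on day 8 the sum was 52.3 to 57.3 FPKM in control and 61.5 to 66.2 FPKM with EGCG. The mean of Des there was lower with EGCG, at 4.84 against 5.65 FPKM, so the list and Des went opposite ways. In BAT the sum was 20.8 to 36.6 FPKM in control and 25.9 to 32.6 FPKM with EGCG on day 4, and 74.2 to 75.7 and 55.0 to 55.2 FPKM on day 8. The part of such cells in the Des values was not tested.

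From day 4 to day 8 most of the set rose in the control cultures of both depots. The 9 members other than Actg2 were tested. In WAT 8 of 9 rose and Des fell, against 27.7% and 33.2% of all genes tested, and in BAT 9 of 9 rose and none fell, against 28.7% and 40.4%. The median change of all 10 was 1.05 in WAT and 1.82 in BAT on the log2 scale, beside -0.03 and -0.10 for all genes. Median-ratio scaling moved the all-gene median in BAT to 0.02 and the share of higher calls from 41.5% to 53.3%. The contrasts over time share their libraries with the EGCG contrasts above. The adipocyte list, at 4786 to 5577 FPKM in WAT and 9706 to 9812 FPKM in BAT controls of day 8, had summed to 1990.2 to 2280.1 FPKM in WAT and 4949.9 to 5784 FPKM in BAT controls of day 4.

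Myl9 had the largest rise in time, by 2.199 ± 0.14 in WAT (adjusted p = 1.53e-07, limma) and 2.86 ± 0.14 in BAT controls (adjusted p = 9.53e-09, limma). In BAT, on the log2(FPKM + 1) scale, it was followed by Myh11 (log2 change 2.17 ± 0.11, adjusted p = 1.06e-08, limma), Acta2 (2.06 ± 0.18, adjusted p = 7.19e-07, limma) and Cnn1 (2.02 ± 0.14, adjusted p = 1.21e-07, limma). The order by the ratio of means was another one, since that scale understates changes of low genes. By the means Cnn1 rose 7.52-fold, Myh11 7.02-fold, Lmod1 5.82-fold and Acta2 4.22-fold in BAT controls. In WAT controls Lmod1 rose 3.87-fold (log2 change 1.30 ± 0.11, adjusted p = 1.03e-06, limma) and, among those that rose, Tpm1 the least (0.46 ± 0.13, adjusted p = 0.00988, limma). The Tpm1 call did not hold without the first WAT control library of day 8 (0.20, adjusted p = 0.0905, limma), in which Tpm1 was at 103 FPKM, against 72.1 FPKM in the second. Actg2 went from 5.87 ± 0.214 to 10.8 ± 0.642 FPKM in WAT and from 3.64 ± 0.933 to 12.5 ± 3.93 FPKM in BAT controls (mean ± SD, n = 2).

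With EGCG most members rose over time as well, and whether the depots differed in this was not tested. In WAT 8 of 9 members rose and Des fell, against 31.8% and 27.7% of all genes, with Myl9 at 3.48 ± 0.14 (adjusted p = 6.10e-09, limma), Tagln at 3.11 ± 0.15 (adjusted p = 1.47e-08, limma) and Acta2 at 3.04 ± 0.18 (adjusted p = 6.33e-08, limma). In BAT 6 of 9 rose and none fell, against 29.7% and 28.2%, and the largest of these rises were those of Tpm1 at 1.16 ± 0.13 (adjusted p = 1.32e-05, limma), Myl9 at 1.04 ± 0.14 (adjusted p = 7.50e-05, limma) and Acta2 at 0.995 ± 0.18 (adjusted p = 4.44e-04, limma). Cnn1 (0.28 ± 0.14, 95% interval -0.02 to 0.59), Myh11 (-0.15 ± 0.11, -0.39 to 0.10) and Des (0.00 ± 0.12, -0.25 to 0.26) did not pass the test there. The Cnn1 rise was called in limma-voom (0.33, adjusted p = 0.0227), with both tables in 1 fit (0.39, adjusted p = 0.00536, limma) and without the first EGCG-treated BAT library of day 4 (0.43, adjusted p = 0.0449, limma). The Lmod1 call (0.30 ± 0.11, adjusted p = 0.0349, limma) did not hold without the second EGCG-treated BAT library of either day. Actg2 overlapped between the days in EGCG-treated BAT, at 36.1 ± 10.4 and 26.9 ± 2.75 FPKM. Whether the time courses of control and EGCG-treated cells differ was not tested, since that difference is made of the day 4 contrast.

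**Figure D3:**
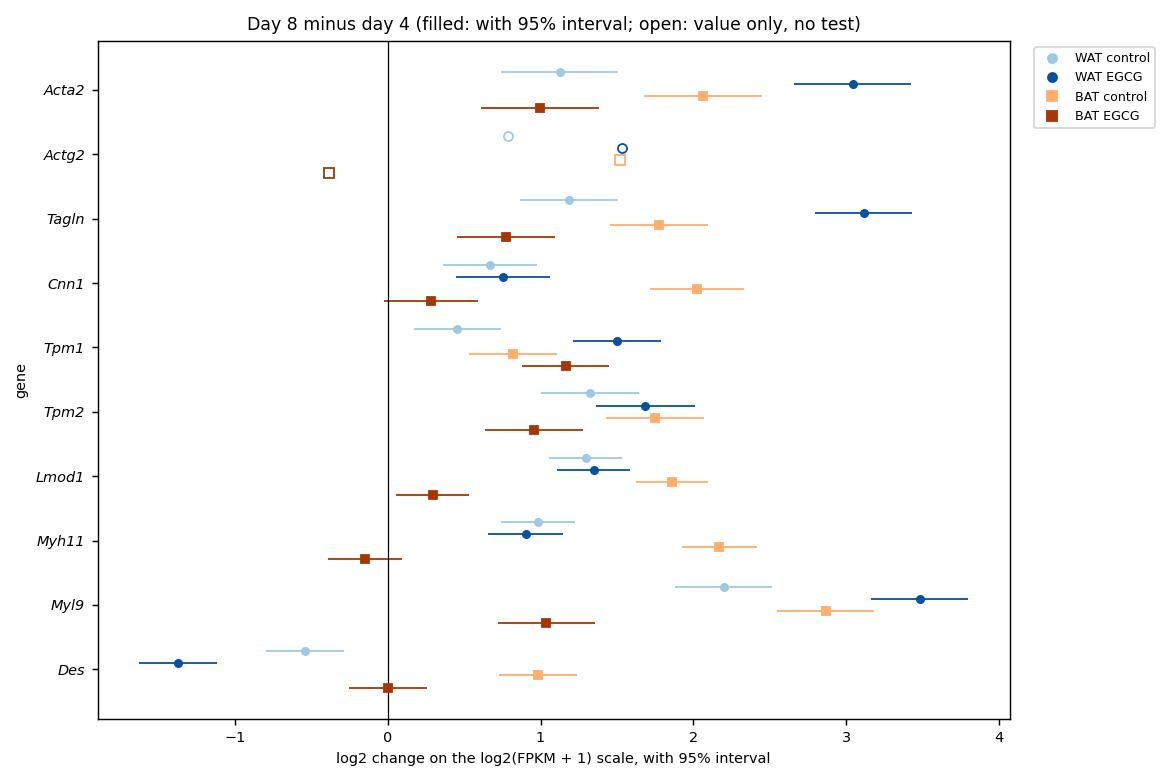
Log2 change from day 4 to day 8 (x axis, log2(FPKM + 1) scale) for the 10 members in control and EGCG-treated WAT (circles) and BAT (squares), with 95% intervals from limma. Actg2 is drawn with open symbols and no interval, because its day 4 values chose it. Des lies left of 0 in both WAT arms, and EGCG-treated BAT has the lowest value of the 4 arms for 8 of the 10 members, the exceptions being Tpm1 and Des.

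In control cultures of day 4 most members were lower in BAT than in WAT. In BAT against WAT controls of day 4, 6 of the 9 members other than Actg2 were lower and none was higher, against 14.4% and 41.4% of all genes tested. Des was lowest in relation to WAT (log2 difference -1.24 ± 0.12, adjusted p = 6.35e-06, limma), followed by Cnn1 (-0.87 ± 0.14, adjusted p = 3.12e-04, limma), Myh11 (-0.83 ± 0.11, adjusted p = 8.14e-05, limma) and Acta2 (-0.70 ± 0.18, adjusted p = 0.00520, limma). Without the first BAT control library of day 4, 3 members were called lower (Des, Cnn1 and Myh11), and Acta2 (-0.53, adjusted p = 0.0556, limma), Tagln and Tpm1 were not called. Tagln was also not called without the first WAT control library. Scaling by median ratios moved the median of all genes in this comparison from 0.15 to 0.02 and the share of calls that were higher in BAT from 74.3% to 51.6%, and Tpm2 was then called lower as well (-0.48, adjusted p = 0.0171, limma).

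In the day 8 controls 4 of 10 members were higher in BAT than in WAT and none was lower, against 31.6% and 22% of all genes, so that the count of higher members was near the background: Lmod1 (0.68 ± 0.11, adjusted p = 2.53e-04, limma), Myl9 (0.55 ± 0.14, adjusted p = 0.00686, limma), Cnn1 (0.49 ± 0.14, adjusted p = 0.0114, limma) and Myh11 (0.35 ± 0.11, adjusted p = 0.0184, limma). Only the Lmod1 call held when each library was left out in turn. Acta2 (0.23 ± 0.18, 95% interval -0.15 to 0.62) and Actg2 (0.16 ± 0.23, -0.36 to 0.67) did not pass the test. Without the second WAT control library of day 8, 2 members were called higher (Lmod1 and Myh11) and 1 lower (Tpm1), and without the first, 5 were called higher.

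With EGCG all 10 members were called different between the depots on day 8. In BAT 8 of 10 members were higher than in WAT and 2 were lower, against 24.4% and 14% of all genes. The largest differences were those of Cnn1 (1.95 ± 0.14, adjusted p = 1.49e-06, limma), Actg2 (1.89 ± 0.23, adjusted p = 8.36e-05, limma) and Acta2 (1.31 ± 0.18, adjusted p = 1.54e-04, limma). Myh11 (-0.47 ± 0.11, adjusted p = 0.00609, limma) and Des (-0.39 ± 0.12, adjusted p = 0.0217, limma) were lower in BAT. Without the first EGCG-treated BAT library neither was called, and the Des call also did not hold without the second EGCG-treated library of either depot.

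Because FPKM is scaled to gene length, the members can be set beside the other genes of their families. Acta2 and Actg2 made up 5.63%, 6.84% and 6.44% of the summed FPKM of 6 actin genes in BAT control libraries of day 4, and 29.9%, 26.6% and 24.1% in the EGCG libraries. In WAT the same share was 7.14%, 6.30% and 5.98% in control and 4.93%, 4.73% and 4.67% in EGCG libraries of day 4. The smooth muscle share of actin was thus higher with EGCG in BAT and lower in WAT on that day, in all 3 replicates. On day 8 it was 18.6% ± 1.25 in control and 29.2% ± 1.006 in EGCG-treated BAT, and 14.4% ± 1.08 and 17.8% ± 0.514 in WAT (SD, n = 2). Most of the rest was Actb, a nonmuscle actin, at 57.2% ± 0.0246 in WAT control of day 4, and Actg1 at 34.2% ± 0.454, while Acta1, the skeletal muscle actin, was at 1.62% ± 0.0736 there and at 4.35% ± 0.119 in EGCG-treated WAT. Shares are descriptions and carry no test.

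Among the conventional myosin heavy chains (Myh9, Myh10 and Myh11), the share of Myh11 went from 8.33% ± 0.543 in control to 0.739% ± 0.136 in EGCG-treated BAT of day 8, and from 4.19% ± 1.22 to 1.30% ± 0.00845 in WAT (SD, n = 2). Myh9, the nonmuscle myosin IIA heavy chain, was at 95.3 ± 1.17 FPKM in control and 351 ± 3.27 FPKM in EGCG-treated BAT. The Cnn1 share of the calponins was 4.62% ± 0.212 in control and 2.80% ± 0.131 in EGCG-treated BAT of day 8, and 2.71% ± 0.231 and 0.761% ± 0.0203 in WAT, so it was lower with EGCG in both depots although the Cnn1 level rose in BAT. Tagln was 37.2% ± 4.76 and 74.0% ± 2.66 of the 2 transgelins in control and EGCG-treated BAT of day 4, and 51.1% ± 2.89 and 30.0% ± 0.432 in WAT. On day 8 these shares were 72.4% ± 0.191 and 77.3% ± 1.38 in BAT, and 67.3% ± 2.58 and 69.3% ± 0.118 in WAT. Myl9 was 25.3% ± 0.477 and 22.4% ± 0.638 of the regulatory light chains in BAT, and 19.6% ± 3.75 and 14.5% ± 0.293 in WAT, of day 8.

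**Figure D4:**
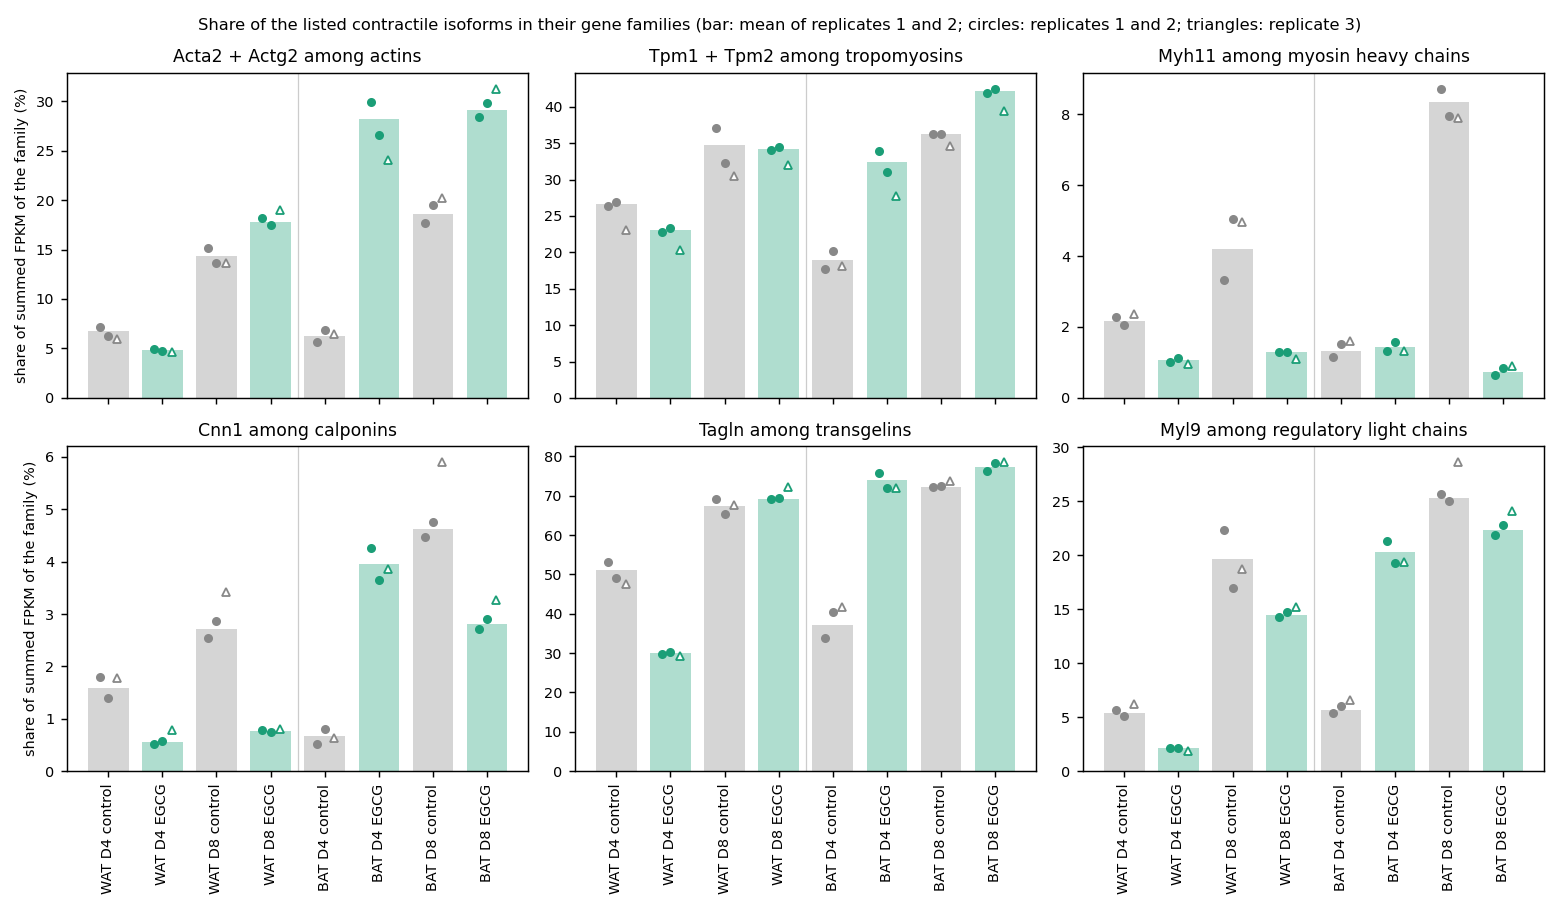
Share of the members in the summed FPKM of their gene families (y axis, percent, from 0) in the 8 groups. Bars are means of replicates 1 and 2, circles are replicates 1 and 2, and triangles are replicate 3. The actin share is near 28% to 29% in both EGCG-treated BAT groups, and the Myh11 share is highest in the day 8 controls.

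The nonmuscle relatives of the members rose with EGCG in both depots on day 8. Of 12 nonmuscle genes (Actb, Actg1, Myh9, Myh10, Myl6, Myl12a, Myl12b, Tpm3, Tpm4, Cnn2, Cnn3 and Tagln2), 11 rose with EGCG on day 8 in WAT and 11 in BAT, against 44.7% and 46.5% of all genes, and none fell in either depot, against 18.9% and 26.1%, with medians of 0.60 and 1.21 on the log2 scale. On day 4 in BAT 2 of 12 (Myh9 and Cnn2) were at least 2-fold higher with EGCG, and in WAT 1 (Cnn2) was 2-fold lower, against 3.4% and 3.08% of all genes. Cnn2, a calponin of nonmuscle cells, was the lowest of the listed relatives and apparatus genes in that WAT contrast, at 12.1 ± 0.951 FPKM with EGCG and 25.7 ± 0.874 FPKM in control. In time it rose in all 4 arms, most in EGCG-treated WAT (log2 change 2.46 ± 0.14, adjusted p = 4.92e-08, limma).

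Of 14 other genes of the contractile apparatus, 13 were tested, with Kcnmb1 below the expression filter. On day 8 6 rose and 2 fell with EGCG in WAT, near the 44.7% and 18.9% of all genes, and 9 rose and 3 fell in BAT, against 46.5% and 26.1%. The medians were 0.18 and 0.59, beside 0.17 for all genes in each depot. Actn1, the actinin that crosslinks actin at focal adhesions, and Cald1, caldesmon, rose most: in BAT Actn1 went from 40.0 ± 1.52 to 182 ± 12.1 FPKM (log2 change 2.16 ± 0.11, adjusted p = 6.89e-09, limma) and Cald1 from 98.4 ± 5.01 to 437 ± 9.07 FPKM (2.14 ± 0.07, adjusted p = 1.03e-10, limma). In WAT Cald1 rose by 1.41 ± 0.07 (adjusted p = 8.23e-09, limma) and Actn1 by 1.35 ± 0.11 (adjusted p = 7.90e-07, limma).

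Among the regulator, apparatus and nonmuscle lists, Mylk and Smtn had the lowest changes in both depots. Mylk, the kinase that phosphorylates the regulatory light chain, fell on day 8 in WAT (-0.61 ± 0.07, adjusted p = 1.23e-05, limma) and BAT (-0.80 ± 0.07, adjusted p = 7.37e-07, limma). Smtn, smoothelin, fell in WAT (-0.50 ± 0.08, adjusted p = 1.14e-04, limma) and BAT (-0.49 ± 0.08, adjusted p = 8.98e-05, limma). Myh11, a member, fell with these 2 in both depots. Among these lists, which do not hold the members, the day 8 difference between depots was largest for Pdlim7, an actin-linked adaptor (1.11 ± 0.09, adjusted p = 5.66e-06, limma), and Myh9 (0.96 ± 0.15, adjusted p = 5.07e-04, limma), and lowest for Ppp1r14a (-0.29 ± 0.25, adjusted p = 0.393, limma) and Myl12b (-0.28 ± 0.09, adjusted p = 0.0244, limma).

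Over time in control cells, the apparatus list rose in the same direction as the members, with 9 of 13 higher and 1 lower in WAT and 10 of 13 higher and 1 lower in BAT, against 27.7% and 33.2% of all genes in WAT and 28.7% and 40.4% in BAT. Ppp1r14a, an inhibitor of myosin phosphatase, rose most, from 1.39 ± 0.458 to 6.52 ± 1.39 FPKM in WAT (log2 change 1.66 ± 0.18, adjusted p = 8.53e-06, limma) and from 1.13 ± 0.473 to 10.5 ± 0.163 FPKM in BAT (2.45 ± 0.18, adjusted p = 1.97e-07, limma), and Cnn2 was next in both depots. Pdlim7 fell in WAT (-0.81 ± 0.07, adjusted p = 8.04e-07, limma) and in BAT (-0.51 ± 0.07, adjusted p = 2.81e-05, limma). In EGCG-treated cells 10 of 13 rose and Smtn fell in each depot, against 31.8% higher and 27.7% lower of all genes in WAT and 29.7% and 28.2% in BAT.

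The regulators of the set gave a mixed picture. Of 7 (Srf, Myocd, Mkl1, Mkl2, Elk1, Elk4 and Klf4), 6 were tested, and Myocd, the myocardin cofactor of smooth muscle, was below the filter, at 0 to 0.589 FPKM in the 24 libraries. With EGCG on day 8, 4 rose and none fell in WAT, and 5 rose and Elk4 fell in BAT, against 44.7% and 18.9% of all genes in WAT and 46.5% and 26.1% in BAT. Srf, the factor that binds CArG boxes, was at 29.2 ± 0.0254 FPKM in control and 14.2 ± 0.213 FPKM in EGCG-treated WAT of day 4, and at 12.7 ± 0.190 and 13.5 ± 0.342 FPKM in BAT. Its day 4 WAT groups did not overlap, with EGCG lower, as for Acta2 and Actg2. On day 8 it rose in BAT by 0.68 ± 0.11 (adjusted p = 9.95e-05, limma), and in WAT it did not pass the test (-0.08 ± 0.11, adjusted p = 0.548, limma).

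Klf4, known as a repressor of smooth muscle genes, was higher with EGCG in both depots on both days. It was at 6.25 ± 0.555 FPKM in control and 27.0 ± 1.07 FPKM in EGCG-treated BAT of day 4, the largest change among the 3 lists of other contractile genes though smaller than that of 6 members, and at 18.5 ± 0.0971 and 26.9 ± 0.874 FPKM in WAT. It rose on day 8 in BAT (1.60 ± 0.10, adjusted p = 2.39e-08, limma) and WAT (0.82 ± 0.10, adjusted p = 1.34e-05, limma). Between control depots it was lower in BAT than in WAT on day 4 (-1.43 ± 0.10, adjusted p = 5.64e-07, limma) and day 8 (-1.15 ± 0.10, adjusted p = 1.51e-06, limma), and Mylk was higher (0.76 ± 0.07, adjusted p = 5.92e-06, and 0.69 ± 0.07, adjusted p = 8.18e-06, limma).

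The pattern of each actin over the 8 group means was compared with that of 10191 genes with a mean of at least 5 FPKM in their highest group. The members Tagln (Pearson r = 0.996), Tpm2 (0.946), Myl9 (0.943), Lmod1 (0.930) and Tpm1 (0.915) ran close to Acta2, whereas Myh11 (0.423) and Des (-0.58) did not. Among other genes Csrp1 (0.979), Cnn2 (0.969), Tmsb4x (0.963), Fam198b (0.956) and Parva (0.955) were nearest to Acta2. Cnn1 was the member nearest to Actg2 (0.957), and outside the set Amotl2 (0.898), Foxj2 (0.895), Tmem158 (0.875), Bgn (0.858) and Ltbp2 (0.847) came nearest. The 8 points share libraries and scaling, and these values are a description. Csrp1, a LIM protein of smooth muscle, ran from 44.7 ± 2.30 to 106 ± 7.45 FPKM with EGCG in BAT on day 4 and from 64.1 ± 3.32 to 49.6 ± 2.12 FPKM in WAT.

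Markers of other cells that make contractile proteins, or that share the stromal fraction, moved as well. A pericyte list (Rgs5, Cspg4, Pdgfrb, Mcam, Notch3, Kcnj8 and Abcc9) summed to 127 to 131 FPKM in control and 292 to 299.5 FPKM in EGCG-treated BAT of day 8, and to 108 to 122 and 191 to 193 FPKM in WAT. In BAT 2 of 7 genes were called higher (Pdgfrb and Notch3) and 2 lower (Rgs5 and Abcc9), against 46.5% and 26.1% of all genes. The share called higher was thus not above that of all genes. On day 4 the sums were 118 to 119.6 and 173 to 178 FPKM in BAT, and 108 to 109.9 and 124 to 126 FPKM in WAT. On day 4 Notch3 was at least 2-fold higher with EGCG in both depots, Abcc9 was at least 2-fold lower in BAT, and the median log2 change of the 7 genes was -0.041 in BAT and 0.13 in WAT.

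Of 10 myofibroblast matrix genes, 6 rose (Postn, Ctgf, Lox, Tgfb1, Tnc and Thbs1) and 2 fell (Col1a1 and Col3a1) with EGCG in WAT on day 8, near the 44.7% and 18.9% of all genes, and 8 rose and the same 2 fell in BAT, against 46.5% and 26.1%. The endothelial list was at 14.9 to 15.6 and 28.6 to 30.0 FPKM in control and EGCG-treated BAT of day 8, and the macrophage list at 102 to 103 and 54.6 to 55.2 FPKM, with all 5 macrophage genes lower in each depot. On day 4 both sums were higher with EGCG: the endothelial list was at 9.64 to 12.03 and 31.0 to 34.2 FPKM in BAT and 13.5 to 14.99 and 32.3 to 33.8 FPKM in WAT, and the macrophage list at 151 to 161 and 343 to 383 FPKM in BAT and 66.6 to 71.9 and 180.0 to 184 FPKM in WAT. A mesothelial list of 5 genes had 2 above the filter (Msln and Krt19), both higher with EGCG in both depots on day 8. A preadipocyte list (Pdgfra, Dlk1, Cd34 and Ly6a) fell in 4 of 4 genes in WAT and 3 of 4 in BAT on day 8. On day 4 its sum was 273 to 302 FPKM in control and 444 to 446 FPKM with EGCG in WAT, where Ly6a was at least 2-fold higher and Dlk1 at least 2-fold lower, and 242 to 313 and 262 to 314 FPKM in BAT. The part of these cell types in the levels of the contractile genes was not tested.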

How the data were processed

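RNA was sequenced in 24 libraries, 3 in each of 8 groups. The values deposited by the authors are FPKM per gene, in a table of replicates 1 and 2 and a separately scaled table of replicate 3. The submitters' processing notes name FastQC 0.11.9, HISAT2 2.2.0, HTSeq 0.11 and mm9. Gene identifiers and lengths matched the longest transcripts of GENCODE vM1 for all 37310 genes. Whether strand was used in counting is not given in the sources used here.

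FPKM times gene length gave whole reads for 100% of values (tolerance 0.01), so that depth could be read, at 39452696 to 52893848 reads on genes in replicates 1 and 2. The 16 libraries of replicates 1 and 2 entered 1 limma 3.58.1 model (R 4.3.3, eBayes with trend) that estimated each group's mean on log2(FPKM + 1), for 14095 genes with at least 1 FPKM in at least 2 libraries. All p-values are two-sided and were adjusted for each contrast with the Benjamini-Hochberg method over all genes tested, with calls at 0.05. The fit was also run on simulated reads in which few genes changed, in a single group. That run does not tell how the fit behaves where many genes shift, as with EGCG on day 8. Ratios of means use FPKM without a pseudocount, and n = 2 for every mean ± SD. Replicate 3 was not averaged with the others, because its table was scaled separately. Tables were handled with pandas 2.3.3 in Python 3.11.15 and drawn with matplotlib 3.10.9.

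The members and gene lists were chosen with earlier results of these data known. Beside the members, genes were named by rule: the 2 largest and 2 smallest changes per contrast among the regulator, apparatus and nonmuscle lists, genes of the isoform families, and the 5 genes nearest in pattern to Acta2 and Actg2. Srf and Klf4 are described in more contrasts than the rule gives, and this was chosen after their values were seen. Alternatives were another pseudocount, no expression filter, median-ratio and quantile scaling, a replicate block, leaving out each library, both tables together, and limma-voom on the recovered reads.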

Additional observations from a re-analysis of the deposited data

Results flagged for a closer look

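The EGCG effect on day 8 differed between BAT and WAT for 8 of the 10 contractile genes by the test of that difference (limma interaction, Benjamini-Hochberg over all genes tested). The difference, BAT minus WAT on the log2 scale, was 1.73 for Actg2 (adjusted p = 0.00160), 1.47 for Cnn1 (0.000157), 1.07 for Acta2 (0.00518), 0.87 for Tpm1 (0.00326), 0.81 for Tagln (0.00862) and 0.80 for Tpm2 (0.00961). It was -0.83 for Myh11 (adjusted p = 0.00162) and -0.67 for Des (0.00723), which were lower with EGCG in both depots by the means and more so in BAT. Actg2 and Cnn1 were the members with opposite called directions in the 2 depots. The fall of Actg2 in WAT was not called when any day 8 WAT library was left out, or without the filter on low values. In the replicate 3 libraries, which entered no test, the sign of the difference was the same for 10 of 10 members after median-ratio scaling. It was the same for 8 of 10 as deposited, where the low EGCG-treated WAT library (median-ratio factor 0.457) raises every difference. The count as deposited therefore cannot tell whether replicate 3 repeated the differences.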

How the results depend on the processing

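Counts of members called were within 1.5 times the reported count for 191 of 192 results under the settings other than leaving out a library. That range takes in the loss of the Lmod1 and Myl9 calls with EGCG in BAT on day 8 under median-ratio scaling (adjusted p = 0.352 and 0.0719, limma). The exception to it was BAT against WAT with EGCG on day 8, where 1 member was called lower with no filter on low values, since Des then missed the threshold. Leaving out each library in turn gave 0 to 2 lower members in that comparison, 3 to 6 lower members in BAT against WAT controls of day 4, and 2 to 5 higher and 0 to 1 lower members in BAT against WAT controls of day 8. In the other comparisons the ranges were 4 to 4 higher and 2 to 2 lower with EGCG in WAT on day 8, 6 to 8 higher with EGCG in BAT on day 8, 6 to 7 higher for the depot difference, 5 to 7 higher over time in EGCG-treated BAT and 7 to 8 in WAT controls, and 3 to 5 at least 2-fold lower with EGCG in WAT on day 4. The counts of the remaining comparisons did not vary. In the fits without a library, the lone sample left in its group is assumed to vary like the other groups.

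None of the log2 changes called for single members changed sign in the alternatives run. Changes that were not called or not tested took the other sign in 22 fits, for 13 results, for example 0.13 in place of -0.13 for Tpm1 in BAT against WAT controls of day 8 without the first WAT control library. Among the untested day 4 changes Lmod1 with EGCG in WAT was -0.026 after quantile normalization, and Des with EGCG in BAT ranged from -0.097 without the first control library to 0.34 without the second. With both tables in 1 fit, or with median-ratio scaling, Des was also called lower with EGCG in WAT on day 8 (-0.39 and -0.36, adjusted p = 0.00140 and 0.0182, limma), and limma-voom called the Myl9 depot difference (0.52, adjusted p = 0.0223). Replicate numbers did not pair the libraries: the correlation of same-numbered deviations lay between -0.079 and 0.081 over 28 pairs of groups. With the replicate block the counts were the same in the comparisons run, for example 8 higher and 2 lower with EGCG in BAT on day 8. Over all genes tested, median-ratio scaling lowered the number called higher with EGCG in WAT on day 8 from 6302 to 4088, and in BAT against WAT controls of day 4 it gave 3482 higher and 3272 lower in place of 5842 and 2025 (3641 and 3052 with quantile normalization). In the fit of both tables, 4305 genes were called lower with EGCG in WAT on day 8 in place of 2660, and 3667 in BAT against WAT controls of day 4. Past 2-fold with EGCG on day 4, 538 genes were higher and 434 lower in WAT, and 479 and 391 in BAT. With a pseudocount of 0.1 these were 1178, 802, 979 and 754, and in limma-voom on reads 1346, 877, 1093 and 847. Limma-voom called 6549 genes higher and 3689 lower with EGCG in BAT on day 8. The share of calls that were higher moved from 63.6% to 53.4% with quantile normalization in BAT against WAT with EGCG on day 8, and of the 2-fold changes with EGCG in WAT on day 4 from 55.3% to 43.1% with median-ratio scaling.

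The share of Acta2 and Actg2 among actins in replicate 3 was 24.1% and 31.3% in EGCG-treated BAT of days 4 and 8, 20.2% in BAT control of day 8, 4.67% and 19.04% in EGCG-treated WAT of days 4 and 8, and 5.98% in WAT control of day 4. Computed from reads without length scaling it was 27.4% in EGCG-treated and 17.3% in control BAT of day 8, and 4.49% and 16.6% in EGCG-treated WAT of days 4 and 8. Genes under a few FPKM, such as Lmod1, Cnn1 and Actg2 in WAT, carry the fewest reads. With 2 libraries a group, a change that did not pass the test was not shown to be absent. The causes of these shifts were not tested.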
